A study of Mus musculus with 4 samples.

Results

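Liver RNA was examined for 10 genes of the tubulin family, Tuba1a, Tuba1b, Tuba1c, Tuba4a, Tuba8, Tubb2a, Tubb2b, Tubb4b, Tubb5 and Tubb6. Members were taken by annotated gene symbol, with no threshold on their values. Of the 10, 8 had a probe set that named no other gene, out of 12393 such genes on the array. The study used male mice of 12 to 20 weeks. Wild-type animals (129S1/SvImJ) were compared with mice of the substrain 129S4/SvJae that lack the fatty acid receptor PPARα in every tissue. Both genotypes received chow and were either fed until the dark period ended or left without food for 24 hours from the onset of light. Each group was represented by 1 Affymetrix MOE430A array that carried the pooled RNA of its mice, so 4 arrays were available in all. The series' design gives 5 mice per group, but the sources differ on whether each pool included all 5.

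With 1 array per group replicate error is unknown, and differences are given as sizes without a test. Genotype and substrain differed together and cannot be told apart. Liver identity was clear from albumin, with Alb between 11968 and 17033 units on the 4 arrays. For Ppara the values were 583 and 755 units in fed and fasted wild-type and 104 and 16.3 units in fed and fasted null liver, which is in the direction of the labels. All values are GCRMA intensities on a linear scale, a background-corrected probe brightness, and values under a floor of 16 units were treated as 16. A gene counted as measured if at least 1 array was above that floor, which held for 6947 genes. Following the threshold that the study set for pooled arrays, a gene was called higher or lower when it differed by 1.5-fold or more.

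Microtubules are hollow cytoskeletal filaments built from pairs of one α-tubulin and one β-tubulin. Each kind is encoded by several genes, the isotypes, whose proteins are nearly identical except for the acidic tail at the carboxyl end, and isotypes mix freely in one filament. In hepatocytes microtubules carry secretory vesicles, among them lipoproteins, towards the blood and membrane proteins towards the bile canaliculus, and they serve as tracks for mitochondria and lipid droplets. Cells also tune tubulin messenger RNA to the amount of unpolymerized tubulin.

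The region from 250 bases before to 50 bases after the annotated start was taken from the RefSeq sequence table for 8 members. All 8 windows are on build GRCm38.p6. Windows of Tubb2b and Tubb6 were not included, so the counts of member windows leave out Tubb6, a measured gene. Windows are shown for 3 genes, because Tubb2a behaved differently from the others and Tuba4a and Tubb4b had almost the same pattern. Capitals mark the letters of the TATA box (TATAAA), the CCAAT box, the GC box (GGGCGG) and the cyclic AMP response element (TGACGTCA). Each was sought on either strand and at any position of the window. The Tubb2a window lies at chr13:34077959-34078258, that of Tuba4a at chr1:75219245-75219544 and that of Tubb4b at chr2:25224653-25224952, all on the minus strand and printed 5′ to 3′.
Tubb2a: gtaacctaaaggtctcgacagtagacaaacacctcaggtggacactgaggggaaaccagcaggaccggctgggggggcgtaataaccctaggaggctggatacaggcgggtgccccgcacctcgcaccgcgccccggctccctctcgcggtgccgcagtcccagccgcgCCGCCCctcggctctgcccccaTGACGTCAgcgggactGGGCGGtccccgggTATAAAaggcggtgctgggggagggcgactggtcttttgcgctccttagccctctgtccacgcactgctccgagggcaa
Tuba4a: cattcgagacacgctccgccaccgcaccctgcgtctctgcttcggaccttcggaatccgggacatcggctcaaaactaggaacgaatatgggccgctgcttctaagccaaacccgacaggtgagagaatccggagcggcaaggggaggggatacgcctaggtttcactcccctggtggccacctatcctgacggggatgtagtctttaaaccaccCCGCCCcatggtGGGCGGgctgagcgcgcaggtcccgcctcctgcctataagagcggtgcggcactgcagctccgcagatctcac
Tubb4b: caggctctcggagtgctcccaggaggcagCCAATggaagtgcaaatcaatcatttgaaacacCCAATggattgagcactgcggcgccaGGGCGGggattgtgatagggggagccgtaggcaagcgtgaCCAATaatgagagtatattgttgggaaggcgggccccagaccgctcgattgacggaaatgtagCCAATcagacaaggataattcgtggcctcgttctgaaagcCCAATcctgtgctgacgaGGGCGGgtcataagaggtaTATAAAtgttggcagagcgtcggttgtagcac

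The Tubb2a window held 1 TATAAA, starting 29 bases before the annotated start, and 1 TGACGTCA, which is palindromic, starting 59 bases before it. TGACGTCA was present in 1 of the 8 member windows and in 1.79% of the 32851 windows of the table. The Tubb4b window held 5 copies of CCAAT, the Tuba4a window 0, and this motif was found in 4 of the 8 member windows and in 37.4% of all windows. The GC box was found in 6 of the 8, against 35.7% of all windows, and TATAAA in 2 of the 8, against 13.6%. The GC content of the 8 windows ran from 53.7% (Tubb4b) to 72.7% (Tuba1b), beside a median of 52.7% over all windows. The motif counts were not adjusted for this. In the Tubb4b window TATAAA began 18 bases after the annotated start, which is not the place of a TATA box. The hexamer AGGTCA, the core unit of PPAR response elements, was found in 1 of the 8 member windows, that of Tuba8, against 16.3% of all windows. A direct repeat of AGGTCA with 1 base between the copies was found in 0 of the 8, against 0.0396% of all windows. These are matches of letters in short windows and say nothing about binding.

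The members were represented by 17 probe sets that named a single tubulin gene and by 5 that listed a tubulin gene together with a pseudogene. Of the 17, 9 stayed below the floor on all 4 arrays. Tubulin isotypes are similar in sequence, and 8 of the 17 carry a design suffix. For most of these (_s or _x) it marks probes that may also match transcripts of other genes. The suffix of the suffixed Tubb5 and Tuba4a probe sets (_a) marks transcripts of the same gene. In the gene annotation Tuba1b, Tuba1a and Tuba1c lie next to each other, as do Tubb2a and Tubb2b. After the brightest probe set of each gene was taken, 6 tubulin genes were measured, of which 4 reached 64 units on at least 1 array (Tubb2a, Tuba4a, Tubb4b and Tuba1a) and 2 did not (Tubb5 and Tubb6). Tubb2b and Tuba8 were not measured, and Tuba1b and Tuba1c had only shared probe sets.

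Tubb2a, a β-tubulin best known from brain, had the widest range of the family. It read 1311 units in fed wild-type, 186 units in fasted wild-type, 2852 units in fed null and 3641 units in fasted null liver. The fasted wild-type pool was therefore far below the remaining 3, and both null pools were above both wild-type pools. Tubb2a was 7.06-fold lower in fasted than in fed wild-type liver, whereas in null liver it was 1.28-fold higher after fasting, under the threshold. Between genotypes it was 2.18-fold higher in fed null liver and 19.6-fold higher in fasted null liver. Its range over the arrays, 4.29 on the log2 scale, was the 45th widest of the 6947 measured genes.

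These values rest on a single probe set of Tubb2a, whose suffix means that its probes may match transcripts of more than one gene. The second probe set of the gene stayed below the floor, with 9.56, 8.90, 11.4 and 15.6 units in fed wild-type, fasted wild-type, fed null and fasted null liver. Its lowest value was also in fasted wild-type and its highest in fasted null liver, but levels this low have no reliable order. The probe set of Tubb2b, the neighbouring gene, read between 14.0 and 15.97 units and was not above the floor on any array. A probe set listed for Tubb2b and the pseudogene Tubb2a-ps2 read between 5.98 and 9.07 units.

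Tuba4a, the α-tubulin whose message does not encode the terminal tyrosine, was lower after fasting in both genotypes. It read 2283 units in fed wild-type, 1084 units in fasted wild-type, 3363 units in fed null and 1704 units in fasted null liver. Fasted liver was thus below fed liver within each genotype, 2.11-fold in wild-type and 1.97-fold in null. The null pool was 1.57-fold higher in the fasted and 1.47-fold higher in the fed state, the latter just under the threshold. A second bright probe set of Tuba4a read 2515, 976, 2672 and 1866 units in the same order of groups. It gave the same directions with other sizes, namely 2.58-fold lower after fasting in wild-type, 1.43-fold lower in null, 1.91-fold higher in fasted null and 1.06-fold higher in fed null liver. The size of the difference between the fed pools thus depended on the probe set, and neither value reached the threshold. The third probe set read between 11.8 and 12.6 units.

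Tubb4b, a widely expressed β-tubulin that is also prominent in cilia, followed the same order as the brightest probe set of Tuba4a. It read 186 units in fed wild-type, 92.1 units in fasted wild-type, 304 units in fed null and 144 units in fasted null liver. The highest pool was fed null and the lowest fasted wild-type. Fasting went with a 2.02-fold lower value in wild-type and a 2.11-fold lower value in null liver, and the null pools were 1.63-fold higher when fed and 1.57-fold higher when fasted. The other 5 probe sets of Tubb4b stayed below the floor, with values between 2.69 and 12.0 units.

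The likeness of Tuba4a and Tubb4b was measured as the Euclidean distance between their log2 values over the 4 arrays, each gene centred on its own mean. It came to 0.11, the smallest distance within the family, and only 1 of the 6946 other measured genes, Gstm5, named here after its value was seen, was nearer to Tuba4a than Tubb4b. With 4 arrays this is a description and the second probe set of Tuba4a had a different profile. The distances of Tubb2a from the other 5 measured tubulins were between 2.46 and 2.89. This distance grows with the range of a gene, and that of Tubb2a was the widest of the family.

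Tuba1a, an α-tubulin of developing neurons, separated by genotype more than by feeding. It read 49.5 units in fed wild-type, 40.8 units in fasted wild-type, 92.6 units in fed null and 72.9 units in fasted null liver. Both null pools were above both wild-type pools, by 1.87-fold in the fed and 1.79-fold in the fasted state. Fasting differences were small, 1.21-fold lower in wild-type and 1.27-fold lower in null liver. The only probe set that names Tuba1a alone carries a suffix that marks possible matches to other transcripts, and one listed for Tuba1a and the pseudogene Gm6682 stayed between 7.27 and 7.76 units.

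Tubb5, the general β-tubulin of dividing and resting cells, was dim. Its brighter probe set gave 33.1 units in fed wild-type, 15.4 units in fasted wild-type, 43.5 units in fed null and 30.8 units in fasted null liver. Since fasted wild-type was under the floor, Tubb5 was at least 2.07-fold lower there than in fed wild-type and at least 1.93-fold higher in the fasted null pool. The fed null pool was 1.31-fold above fed wild-type, and fasting in null liver went with a 1.41-fold lower value. The dimmer probe set read 19.5, 15.0, 22.6 and 16.4 units and reached the threshold in 0 of the 4 comparisons, so the calls for Tubb5 hold for 1 of its 2 probe sets.

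Tubb6, a β-tubulin of many non-neural cells, was near the floor throughout. It read 19.4 units in fed wild-type, 17.0 units in fasted wild-type, 24.3 units in fed null and 27.0 units in fasted null liver. Both null pools were above both wild-type pools, and the fasted null pool was 1.59-fold above the fasted wild-type pool. The remaining differences of Tubb6 were 1.25-fold between the fed pools, 1.14-fold for fasting in wild-type and 1.11-fold for fasting in null liver. Tuba8, an α-tubulin of muscle and testis, read 7.43, 8.17, 9.35 and 14.2 units in the same order and was below the floor on all arrays.

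Tuba1b and Tuba1c, α-tubulins found in most cells, could be read only through probe sets that list a pseudogene beside them, so no value is assigned to either gene. For Tuba1b together with Gm5620 the level was 531 units in fed wild-type, 52.5 units in fasted wild-type, 602 units in fed null and 147 units in fasted null liver. It was low in both fasted pools and lowest in fasted wild-type, 10.1-fold below fed wild-type. In null liver it was 4.09-fold lower after fasting. Its fasted null pool was 2.80-fold above the fasted wild-type pool, while the fed pools differed by 1.13-fold.

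The brighter of the probe sets listing Tuba1c and Gm6682 read 334, 183, 400 and 365 units in fed wild-type, fasted wild-type, fed null and fasted null liver. The fasted wild-type pool was 1.82-fold below fed wild-type, and fasted null was 1.99-fold above fasted wild-type. The dimmer one read 42.6, 30.9, 53.3 and 50.9 units, with the same pool lowest and a 1.65-fold difference between the fasted pools. In null liver the fed and fasted values of these probe sets differed by 1.10-fold and 1.05-fold.

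**Figure D1:**
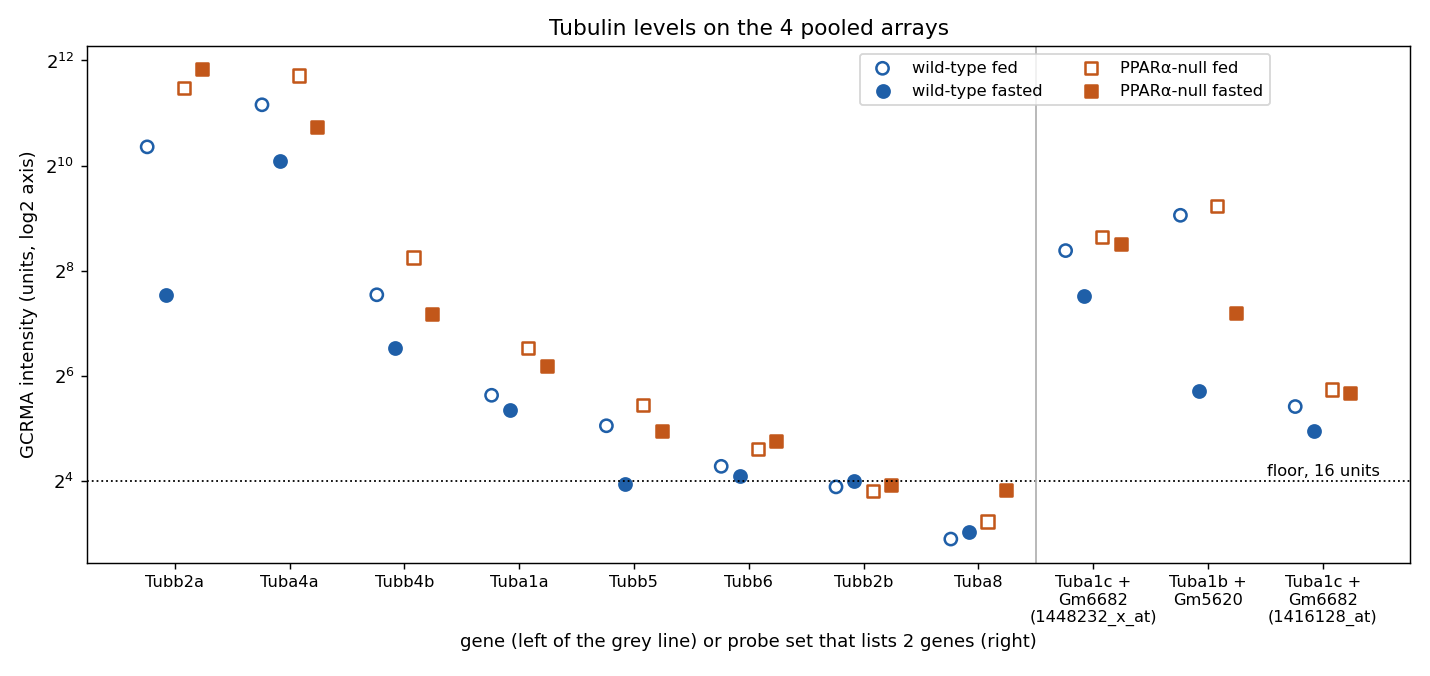
GCRMA intensity on a log2 axis for the 8 tubulin genes with a probe set of their own and for 3 probe sets that list a tubulin gene with a pseudogene, 1 point per pooled array. Circles are wild-type and squares null pools, open symbols fed and filled ones fasted, and the dotted line marks 16 units, the floor. Fasted wild-type is the lowest pool for each of the 6 measured genes, and Tubb2a falls to 186 units there against 3641 units in fasted null liver.

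**Figure D2:**
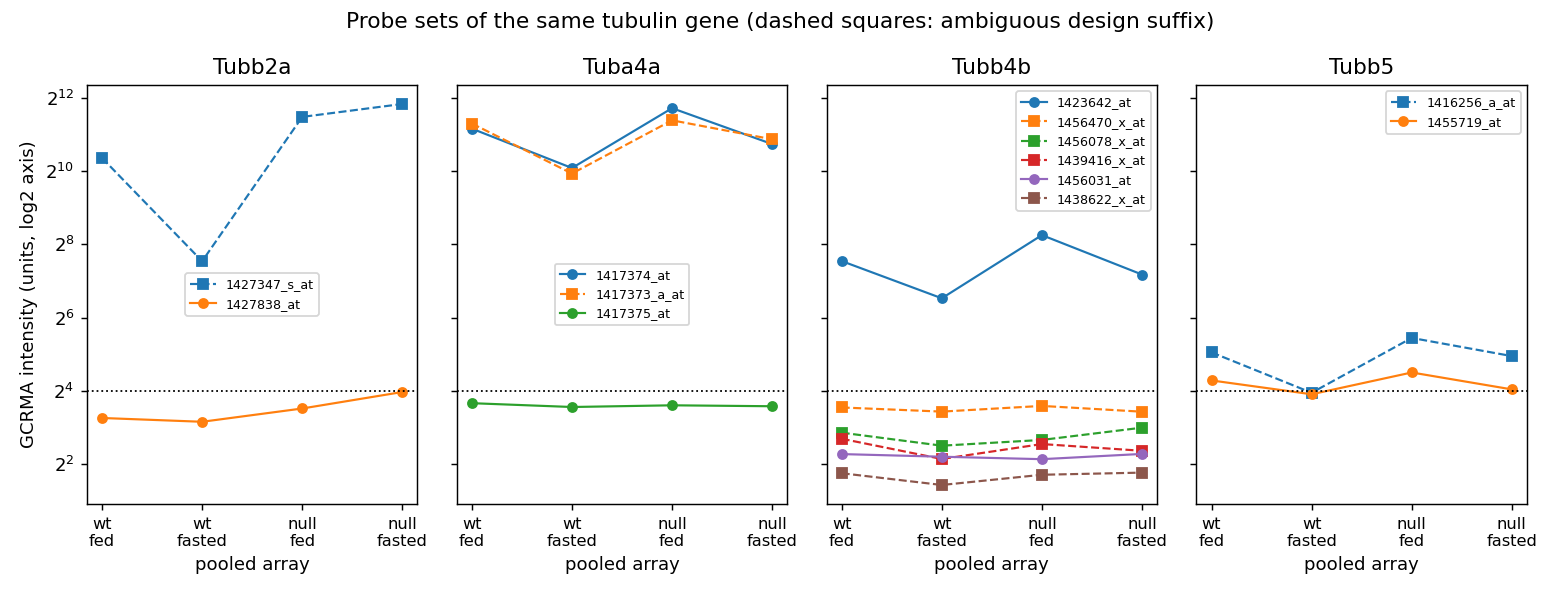
GCRMA intensity on a log2 axis for every probe set that names only Tubb2a, Tuba4a, Tubb4b or Tubb5, with lines joining the 4 pooled arrays of one probe set (circles for plain probe sets, dashed squares for those with a design suffix) and a dotted line at the floor. The suffix of the Tubb5 and Tuba4a probe sets drawn dashed marks transcripts of the same gene. Tuba4a has 2 bright probe sets, both lower in fasted than in fed pools of each genotype, whereas Tubb2a and Tubb4b each have 1 probe set above the floor.

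Between the fasted pools, the contrast meant to show what the lack of PPARα changes without food, every measured tubulin gene was higher in the null pool. All 6 of 6 were called higher and 0 lower, beside 8.58% of all measured genes called higher and 13.6% called lower. The median log2 difference of the 6 genes was 0.75, beside -0.01 for all 6947. Apart from Tubb2a the differences were moderate, from 0.65 for Tubb4b to at least 0.95 for Tubb5. As a measure of probe set scatter, differences from several probe sets of a gene had an SD of 0.36 in this comparison, over 1087 genes that reach 64 units, which is a technical yardstick and not a replicate error. When each array was centred on its bright probe sets, 12.6% of genes were higher and 10.2% lower, so the balance over all genes turned, while 6 of 7 tubulin genes were called higher, the seventh being Tubb2b, which then passed the floor.

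Between the fed pools all 6 differences were again positive. Those of Tubb2a, Tuba4a, Tubb5 and Tubb6 were smaller than between the fasted pools, whereas Tuba1a (0.90 against 0.84) and Tubb4b (0.71 against 0.65) differed slightly more. Tubb2a, Tuba1a and Tubb4b were called higher in null liver and 0 were called lower, beside 2.38% and 2.12% of all measured genes. Tuba4a, Tubb5 and Tubb6 had positive differences of 0.56, 0.39 and 0.33 that did not reach the threshold. The median of the 6 was 0.63 on the log2 scale, beside 0.00 for all genes, and probe sets of one gene scattered with an SD of 0.21.

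Fasting of wild-type mice went with lower tubulin values. Tubb2a, Tuba4a, Tubb5 and Tubb4b were called lower and 0 of the 6 higher, beside 8.29% of all measured genes called lower and 8.20% called higher. Tuba1a and Tubb6 had differences of -0.28 and -0.19 on the log2 scale. The median of the 6, with Tubb5 at its bound, was -1.03, beside 0.00 for all genes and an SD of 0.26 between probe sets of one gene. This comparison and the one between the fasted pools share the fasted wild-type array, so they are not independent of each other.

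In fasted PPARα-null mice the family was divided. Tuba4a and Tubb4b were called lower and 0 of the 6 higher, beside 18.0% of all measured genes called lower and 12.4% called higher, shares that became 14.4% and 15.9% with centring on bright probe sets. The share of lower tubulins, 2 of 6, was thus not far above that of all genes. Tubb5 and Tuba1a had log2 differences of -0.50 and -0.35, Tubb6 of 0.15 and Tubb2a of 0.35. The median was -0.42 and probe sets of one gene scattered with an SD of 0.45.

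The fasting responses of the genotypes were set side by side, since they share no array. The response of Tubb2a was 3.17 higher on the log2 scale in null than in wild-type liver, and that of Tubb5 at least 0.55 higher, since its fasted wild-type value was under the floor. For Tubb4b the responses differed by -0.06, for Tuba1a by -0.07, for Tubb6 by 0.34 and for Tuba4a by 0.09. The second probe set of Tuba4a gave 0.85. The probe set listing Tuba1b and Gm5620 gave 1.31, and those listing Tuba1c and Gm6682 gave 0.73 and 0.40. Without replicates none of these differences between responses could be tested.

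**Figure D3:**
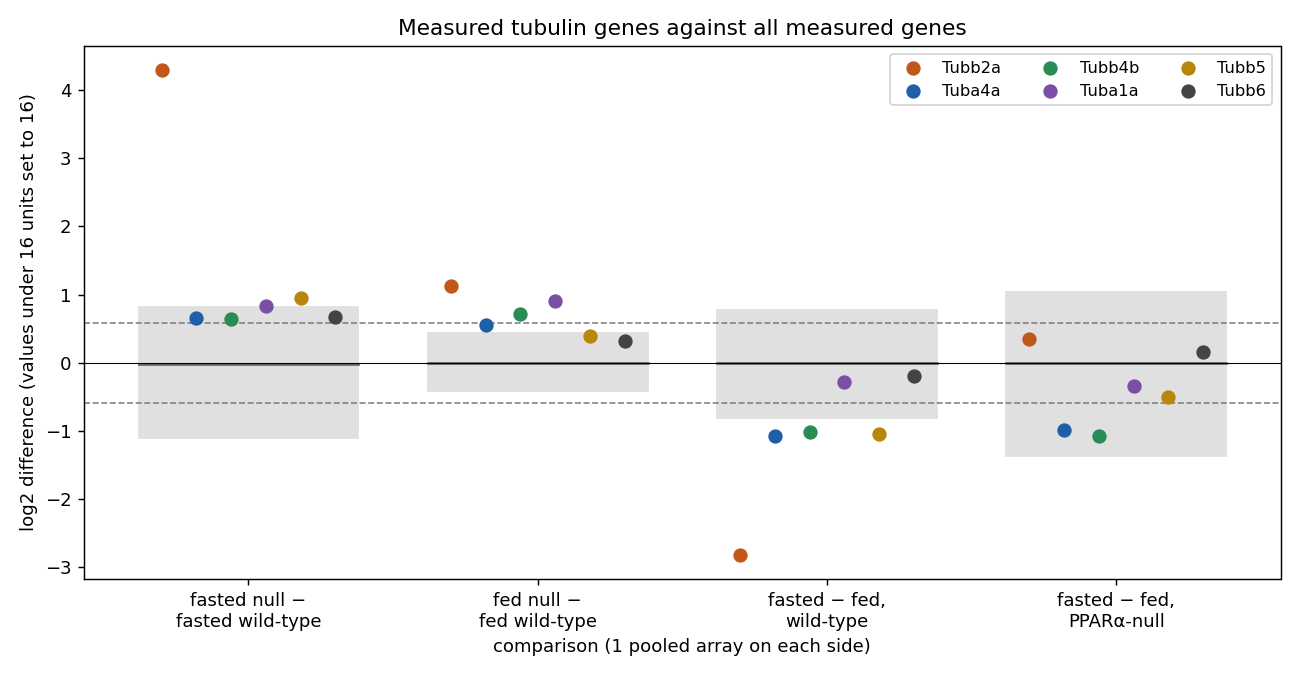
Log2 differences of the 6 measured tubulin genes in the 4 comparisons, 1 pooled array on each side. Grey boxes span the 5th to 95th percentile of all 6947 measured genes with their median as a line, and dashed lines mark 1.5-fold. All 6 points lie above zero in both comparisons of genotypes and below zero for fasting in wild-type liver, with Tubb2a at 4.29 and -2.82.

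**Figure D4:**
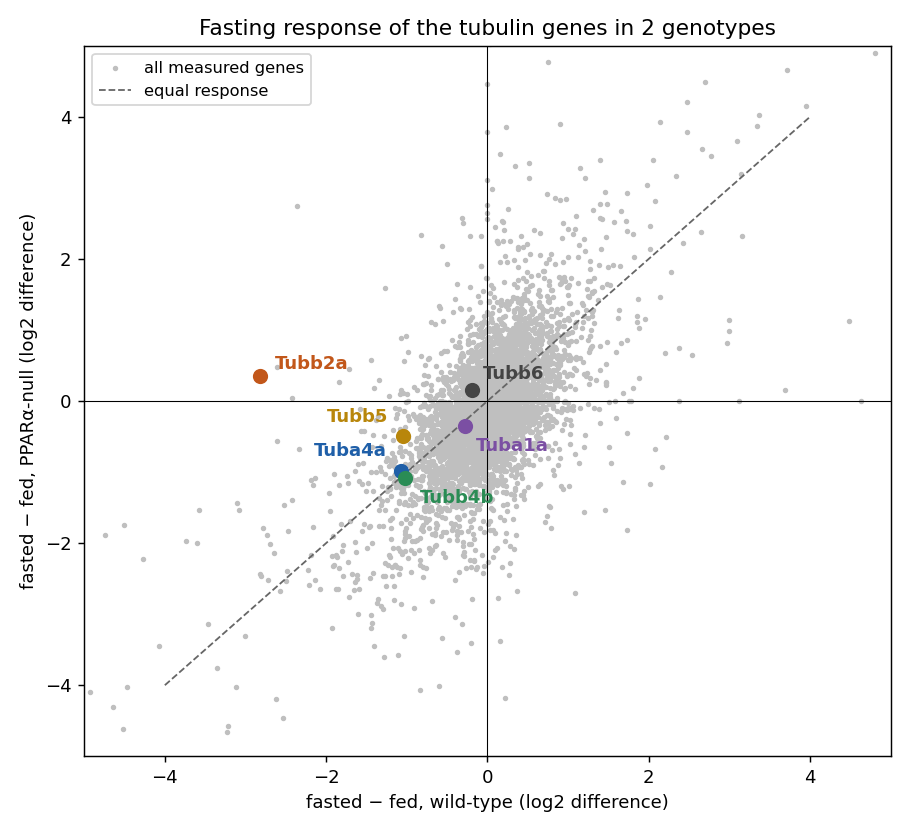
Log2 difference of fasted minus fed in wild-type (horizontal) against PPARα-null liver (vertical) for all measured genes (grey) and the 6 measured tubulin genes (coloured), with 14 genes outside the plotted range and the dashed line marking equal responses. Tuba4a, Tubb4b and Tuba1a lie near that line and Tubb2a lies far above it at -2.82 and 0.35.

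The genes whose pattern was most like that of Tubb2a, by the same distance over the 4 arrays, were Chka, Meg3, Id3, Prg4, Thrsp, Pde4b, Gstm2 and Lect2, with distances from 1.23 to 1.63. Chka, which encodes a choline kinase, was the nearest and read 54.0, 18.1, 122 and 113 units in fed wild-type, fasted wild-type, fed null and fasted null liver. All 8 were lowest in fasted wild-type liver, which their choice by closeness to Tubb2a made likely. The nearest lay farther from Tubb2a than the other 5 tubulins lay from each other (0.11 to 1.06). The distance is not scaled for range, which was widest for Tubb2a, so this comparison partly restates that range. With 4 arrays the order is a description.

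The remaining tubulin superfamily was hardly detected. Of 10 other α-, β-, γ-, δ- and ε-tubulin genes looked for, 6 had a probe set of their own and 1 was measured, Tubg1, the γ-tubulin of microtubule nucleation, at 24.3, 18.9, 25.2 and 21.4 units. Tuba3b, Tubb3, Tubb4a, Tubg2 and Tubd1 were at the floor on all arrays. The neuronal isotype Tubb3 read between 8.46 and 11.7 units.

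Genes of tubulin folding had few calls. Of all measured genes, 8.58% were called higher and 13.6% lower between the fasted pools. For fasting in wild-type liver the shares were 8.20% and 8.29%. The 8 genes of the CCT chaperonin, which folds newly made tubulin and actin, had a median log2 difference of -0.14 between the fasted pools, with 0 called higher and 1 lower (Cct4, 1.54-fold). In fasted against fed wild-type liver their median was 0.09, with Tcp1 1.59-fold higher and 0 lower. The 5 measured prefoldin genes, whose products hand tubulin to CCT, had medians of -0.01 between the fasted pools and -0.18 for fasting in wild-type liver, where Pfdn1 was 2.21-fold lower. Pfdn6 was 1.54-fold lower between the fasted pools. The 6 measured tubulin cofactor genes had medians of 0.07 and -0.12, and Tbcel was 1.94-fold lower after fasting in wild-type liver.

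Other microtubule genes had few calls between the fasted pools, where 8.58% of all measured genes were called higher and 13.6% lower. The counts of these lists were not far from those shares. Among 14 measured genes of microtubule-associated proteins, 2 were higher and 1 lower in the null than in the wild-type pool after fasting. Dst, which encodes a cytoskeletal linker, was 2.56-fold higher, Stmn1, which encodes the tubulin-sequestering protein stathmin, 1.78-fold higher, and the plus-end binding gene Mapre2 3.74-fold lower. Among 15 motor genes, the dynein light chain gene Dynll2 was 1.98-fold higher and the kinesin gene Kif1c 1.67-fold lower. Of 8 genes of nucleation and severing, 0 were higher and Spast, which encodes a severing enzyme, was 2.18-fold lower. The medians of these lists were 0.10, -0.01 and -0.03. The 5 measured genes of tubulin modification had 0 calls in any of the 4 comparisons, and 4 of them were under 64 units on all arrays.

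Actin and intermediate filament genes were partly higher in the same comparison, beside 8.58% of all measured genes called higher and 13.6% called lower. Of 6 measured genes, Actg1 was 3.34-fold, Vim 2.87-fold and Krt8 1.54-fold higher in fasted null liver and 0 were lower, with a median log2 difference of 0.52. Actg1, a cytoplasmic actin, read 2223, 1423, 2229 and 4745 units in fed wild-type, fasted wild-type, fed null and fasted null liver, so it was highest in fasted null liver while the fed pools were nearly equal. Vim is expressed by mesenchymal cells and macrophages.

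Among markers of other liver cells, the Kupffer cell and macrophage list had the most calls between the fasted pools, and the lists did not all behave alike. Of all measured genes, 8.58% were called higher and 13.6% lower between the fasted pools, and 2.38% and 2.12% between the fed pools. Of 12 listed Kupffer cell and macrophage markers 11 were measured, and 8 were called higher and 0 lower in the fasted null pool. Their summed level was 991 units in fed wild-type, 590 units in fasted wild-type, 1026 units in fed null and 1212 units in fasted null liver, with Cd68 at the floor on all arrays. Between the fed pools 0 of the 11 were called in either direction, which is near the shares of all genes there. Of 7 measured stellate cell and fibroblast markers 3 were higher between the fasted and 2 between the fed pools, with Des, Lrat and Col1a1 at the floor. Their summed levels were 1408, 1439, 1693 and 2218 units, mostly from Dcn (1061, 1175, 1218 and 1876 units), so the sums say little about the other markers. For fasting in wild-type liver the median of the 7 was -0.29 on the log2 scale. There 0 were called higher and 1 lower (Col3a1, at least 2.95-fold), beside 8.20% and 8.29% of all measured genes. The 8 measured endothelial markers went both ways, 3 higher and 2 lower between the fasted pools, with Pecam1 and Emcn at the floor. Their sums were 719, 655, 739 and 1037 units, of which Stab2 gave 250, 314, 203 and 637 units. The 9 measured hepatocyte markers had a median of 0.19 there, with Tat the 1 called, 1.53-fold higher. Of the bile duct and lymphocyte lists only Sox9 and Ptprc were measured, at 20.7 to 33.9 and 21.0 to 38.0 units. In bulk liver, fewer cells of a type and less RNA per cell cannot be told apart, and the part of these cells in the tubulin values was not tested.

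Cell division genes gave little signal. Of 13 with a probe set of their own, 12 were at the floor on all arrays, among them Mki67, Top2a and Cdk1, and the one measured, Pcna, differed by less than 1.5-fold in all 4 comparisons.

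**Figure D5:**
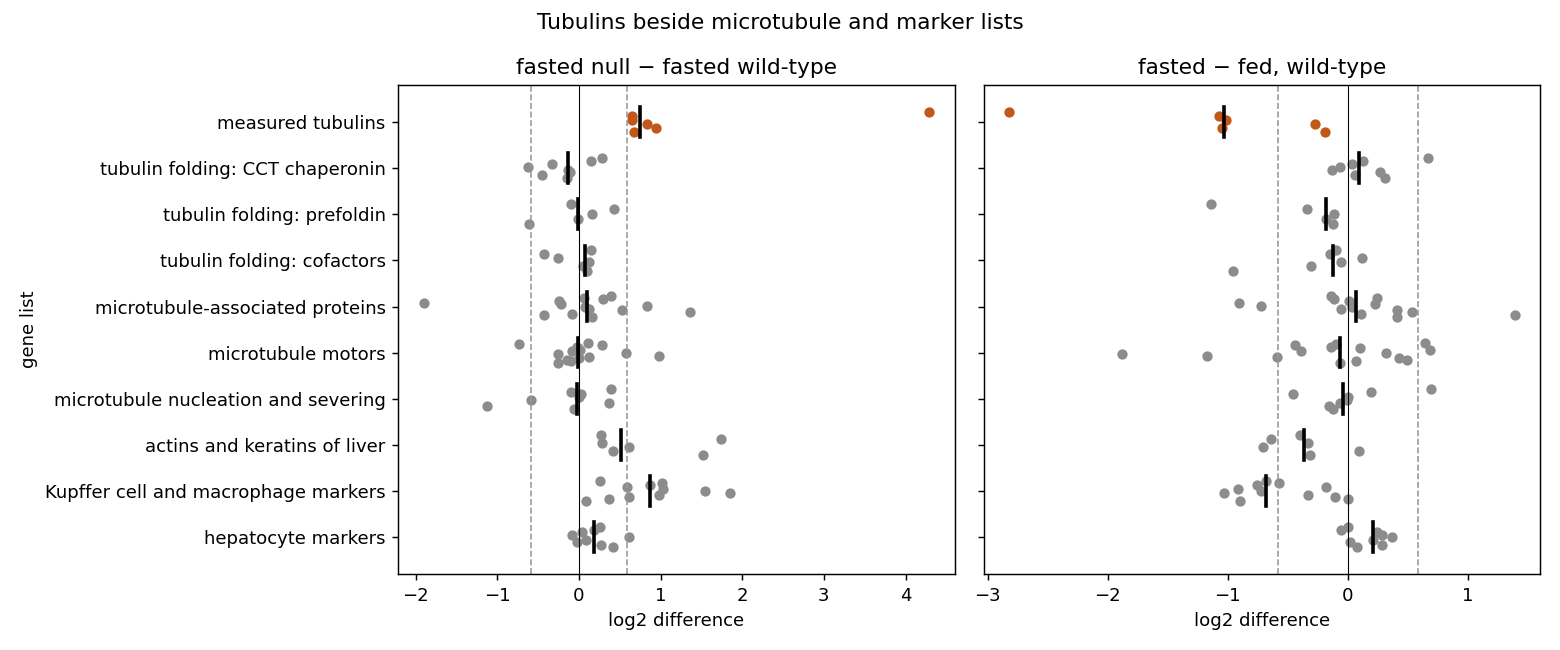
Log2 differences of single genes (points) with the list median (black bar) for the 6 measured tubulins and 9 other lists, between the fasted pools (left) and for fasting in wild-type liver (right), 1 pooled array per group. Dashed lines mark 1.5-fold. The tubulin medians are 0.75 and -1.03, those of the CCT chaperonin -0.14 and 0.09, and those of the Kupffer cell markers 0.87 and -0.68.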

How the data were processed

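The deposited values are probe set intensities on a linear scale. The authors made them with GCRMA, for which the submitters' processing notes name version 2.20, with background correction by probe sequence and quantile normalization. The arrays had medians of 14.4 to 14.6 units. Scanner files were not used, and the number of arrays limits the precision.

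Values were converted to log2. The annotation table gives 1 gene for 20380 of 22626 non-control probe sets, several for 691 and none for 1555, and those with several named no gene. For the 17 own probe sets of the members, symbols matched RefSeq (GRCm38.p6). Each gene was read from the probe set with the highest mean, with a floor at log2 of 4 (16 units), and a fold against a value under the floor is written as at least. Members, lists and comparisons were chosen with earlier results of these data known. Named were all members, the 8 genes nearest to Tubb2a and up to 4 genes of each list with the largest difference. Alternatives were a 2-fold threshold, other floors, quantile normalization, centring, lowess (fraction 0.3), leaving out suffixed probe sets, and averaging or separately counting probe sets. The procedure was run on simulated data with planted changes well past the threshold, in brighter genes only. That run does not bear on moderate differences or on dim genes. Python 3.11.15, numpy 2.4.6, pandas 2.3.3, statsmodels 0.14.6 and matplotlib 3.10.9 were used.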

Additional observations from a re-analysis of the deposited data

Results flagged for a closer look

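The fasting response of Tubb2a went in opposite directions in the genotypes, -2.82 on the log2 scale in wild-type and 0.35 in PPARα-null liver, a difference of 3.17. This difference was not tested, since each value compares 1 pooled array with another, and the positive value in null liver is smaller than the SD of 0.45 between probe sets of one gene in that comparison. It rests on a single probe set of ambiguous design.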

How the results depend on the processing

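Of 72 counts of tubulin genes under alternatives, 62 stayed within 1.5 times the main count. Many of the 62 were main counts of 0 that stayed at 0, which says little about stability. Those were tubulins lower in null liver in either state, or higher after fasting in either genotype. Between the fasted pools the 6 higher genes became 1 (Tubb2a) with a 2-fold threshold, 3 of 4 with a floor at 64 units, 3 of 4 without suffixed probe sets, where Tubb2a is no longer measured, and 3 of 5 with averaged probe sets. The 3 genes higher in fed null liver became 1 with a 2-fold threshold and 1 of 4 without suffixed probe sets. The 4 genes lower in fasted wild-type liver became 2 of 4 without suffixed probe sets. The 2 genes lower after fasting in null liver became 1 with a 2-fold threshold and 0 with averaged probe sets, and without a floor 1 gene (Tuba8, dim on all arrays) was higher there. Some genes were no longer measured under an alternative and gave no difference there. They were Tubb2a and Tuba1a without suffixed probe sets, Tubb4b with averaged probe sets, and Tubb5 and Tubb6 with a floor at 64 units. Over the 208 differences of single genes and shared probe sets that remained, 200 kept their side of the threshold. The other 8 fell below it, and 0 of those past the threshold changed sign. Among these, Tubb5, at its bound, went from 0.95 to 0.04 between the fasted pools and from -1.05 to -0.28 for fasting in wild-type liver when its suffixed probe set was left out. Relative to the mean of the 4 arrays, the median of bright probe sets lay at 0.05 in fasted wild-type and -0.10 in fasted null liver on the log2 scale, and counts of called tubulins with centring, quantile normalization and lowess were those given above. No paired analysis was possible because each group has 1 array. Leaving out a replicate was likewise not possible.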

Other observations

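Some genes of microtubule function differed with feeding in both genotypes. Dynll1, a dynein light chain gene, read 1629 units in fed wild-type, 442 units in fasted wild-type, 1662 units in fed null and 369 units in fasted null liver. It was 3.69-fold lower after fasting in wild-type and 4.51-fold lower in null liver. Tbcel, which encodes a tubulin-destabilizing protein, was also lower after fasting in both genotypes, with 285 and 146 units in wild-type and 310 and 156 units in null liver. Map1lc3a, which encodes an autophagosome protein first found on microtubules, was higher after fasting, 2.63-fold in wild-type and 1.70-fold in null liver. Mapre2, which encodes a plus-end binding protein, read 176, 93.9, 188 and 25.1 units in the same order of groups, with log2 differences of -0.91 for fasting in wild-type and -2.91 in null liver. These genes are examples from the motor, cofactor and microtubule-associated lists, chosen after their values were seen.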
